A study of Mus musculus with 6 samples.

Results

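Alveolar macrophages and the other cells of the airspace carry surface proteins that tell a T cell whether to respond and a neighbouring phagocyte whether to eat. Here 10 genes for such proteins were followed in mouse lung lavage cells. They comprised 7 genes of T cell co-signalling (Cd80, Cd86, Cd40, Cd274, Pdcd1lg2, Icosl and Cd83), called ligand genes below although Cd40 encodes a receptor, and 3 genes of inhibitory pathways of myeloid cells (Cd200r1, Cd47 and Sirpa), called brake genes. They were chosen by name, through the match of Ensembl gene IDs to GENCODE M21 symbols. The rule used none of their values, but earlier results of these data were known when the genes were chosen. All 10 are annotated as protein coding. All 10 were found among 48795 gene IDs, and all 10 were among the 12627 genes that reached 10 counts in 3 or more libraries.

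The data are raw read counts per gene from RNA sequencing of 6 lavage libraries, titled CD170, CD171, CD174, CD176, CD177 and CD178; these are library titles and not surface antigens. The mice were wild-type C57BL/6 animals of 8 to 12 weeks, of either sex. The study instilled CdCl2 at 100 ng/kg, or saline as its control, into the trachea and lavaged the lungs 7 days later, to compare airspace cells after the metal with those after vehicle. The labels used here give none of the 6 libraries an exposure or a sex, nor say whether each came from its own mouse, so no library was placed in a group. No comparison of exposures was made, no test was run, and each gene is given library by library.

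Libraries held 7732244 (CD174) to 23599369 (CD178) gene counts. CD174 and CD171 stood apart from the rest: 1068 of the 12627 genes had 0 counts in CD174 and 461 in CD171, against 3 to 69 in the other libraries. Rows that name no gene held 46% of all counts in CD174 and 31.9% in CD171, against 18.8 to 20.8% in the others. The lowest of the 6 values lay in CD174 for 38.9% of the genes and in CD171 for 22%. The ranges of the 10 genes, their sums and their ratios are therefore given with and without both. Marker genes of alveolar macrophages were abundant throughout, with a summed level of 23993 to 30962 CPM (read counts scaled to library size), led by Chil3, Ear2 and Mrc1. In such a mixed sample, a change in the share of cells that carry a transcript and a change in its amount per cell cannot be told apart.

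The B7 proteins encoded by Cd80 and Cd86 bind CD28, which promotes T cell activation, and CTLA4, which restrains it. PD-L1 (Cd274) and PD-L2 (Pdcd1lg2) bind the inhibitory receptor PD-1, and the ICOS ligand (Icosl) binds ICOS. CD40 is a receptor of antigen-presenting cells that is engaged by CD40 ligand and signals through TRAF proteins to NF-kB. On the inhibitory side, SIRPA recruits phosphatases when it binds CD47 on another cell and so limits phagocytosis, and CD200R1 dampens myeloid activation when it binds CD200. Resting alveolar macrophages are known as weak stimulators of T cells.

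Cd274 and Pdcd1lg2 are neighbours on the same strand, 22824 bases apart, at chr19:29367455-29388095 and chr19:29410919-29471161 (GRCm38, GENCODE M21, as for all genes below), yet their levels differed between libraries in different ways, as described further on. Their promoters are shown for that reason, beside that of Cd80, whose counterpart Cd86 also followed another pattern. Each runs from 250 bases before to 50 bases after a RefSeq start (GRCm38.p6, plus strand), at chr19:29367188-29367487, chr19:29410669-29410968 and chr16:38458683-38458982. Capitals mark a GC box (GGGCGG) in Cd274, an NF-kB motif and then an ETS/PU.1 motif (GAGGAA, here on the minus strand) in Pdcd1lg2, and an AP-1 motif (TGANTCA) in Cd80.
Cd274: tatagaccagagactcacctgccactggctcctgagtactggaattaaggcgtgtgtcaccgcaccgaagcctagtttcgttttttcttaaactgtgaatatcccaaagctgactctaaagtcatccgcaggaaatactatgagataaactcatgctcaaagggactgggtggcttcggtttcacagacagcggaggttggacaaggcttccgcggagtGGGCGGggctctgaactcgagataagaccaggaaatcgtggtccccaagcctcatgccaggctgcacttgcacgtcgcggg
Pdcd1lg2: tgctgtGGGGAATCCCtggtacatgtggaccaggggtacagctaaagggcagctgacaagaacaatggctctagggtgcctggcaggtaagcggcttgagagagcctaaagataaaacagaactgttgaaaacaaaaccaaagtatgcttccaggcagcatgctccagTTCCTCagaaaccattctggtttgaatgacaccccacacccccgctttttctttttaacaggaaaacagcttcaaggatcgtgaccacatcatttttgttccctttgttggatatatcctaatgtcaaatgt
Cd80: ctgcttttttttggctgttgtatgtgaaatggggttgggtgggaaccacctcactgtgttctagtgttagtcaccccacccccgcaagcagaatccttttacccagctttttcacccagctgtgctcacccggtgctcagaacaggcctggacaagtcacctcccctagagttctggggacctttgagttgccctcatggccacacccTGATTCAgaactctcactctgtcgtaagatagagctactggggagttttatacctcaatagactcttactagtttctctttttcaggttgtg

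Counted from the RefSeq start, the first base of the match lay at -31 for the GC box, at -244 for NF-kB, at -82 for ETS/PU.1 and at -42 for AP-1. Promoters of this kind were matched for 5 of the 10 genes, the others being Icosl and Cd47. Icosl held an NF-kB motif and a GC box, and Cd47 held GC boxes. Neither an interferon-gamma activated site (GAS, TTCNNNGAA) nor an interferon-stimulated response element core (ISRE, GAAA followed after 2 bases by GAAA) was in any of the 5 windows. Both strands were searched, and no 2 of the marked matches overlapped. Among 32851 promoters of 300 bases, 35.7% held the GC box, 28.3% the ETS/PU.1 motif, 8.46% the NF-kB motif, 7.81% the AP-1 motif, 8.3% GAS and 3.44% the ISRE core. The RefSeq starts of Cd80 and Cd47 lie inside the GENCODE spans of these genes. A match is a string of letters and was not tested as a binding site.

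Sirpa and Cd47 were the most abundant of the 10 genes. Per kilobase of annotated exon, which allows genes of different length to be compared, the median level over the 6 libraries was 382.6 CPM per kb for Sirpa and 129.2 for Cd47. Cd274 followed at 58.7, Cd200r1 at 37.1, Cd83 at 23.8 and Icosl at 11.5 CPM per kb. The lowest were Cd80 at 5.51, Pdcd1lg2 at 3.96, Cd86 at 2.84 and Cd40 at 0.218 CPM per kb. The ranges of neighbours in this order were apart from Sirpa down to Cd200r1, and again from Cd83 to Icosl and from Icosl to Cd80. The ranges of Cd200r1 and Cd83 overlapped, although Cd200r1 was the higher in 6 of 6 libraries. Those of Cd80, Pdcd1lg2, Cd86 and Cd40 overlapped from each to the next, and Pdcd1lg2 exceeded Cd86 in only 3 of 6 libraries. With the length of the longest basic transcript, Cd200r1 (65.7) passed Cd274 (58.7) and the other places held.

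**Figure D1:**
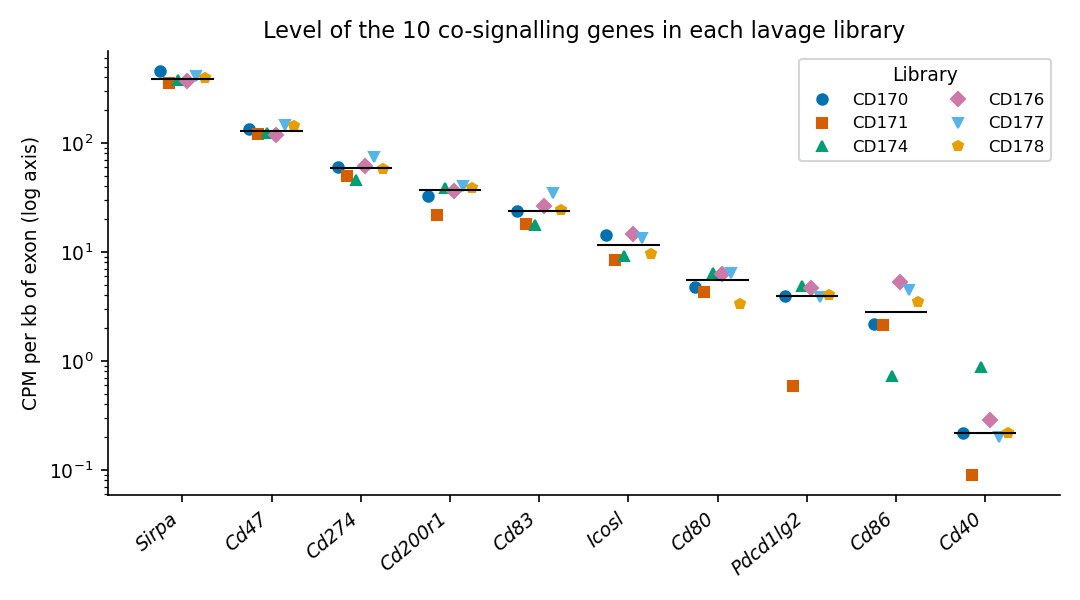
Level of the 10 genes in each of the 6 lavage libraries, in CPM per kilobase of exon on a log axis; each symbol is 1 library and each black line the median. Sirpa and Cd47 lie above the other 8 genes in each library, and Cd40 has the lowest median, 0.218 CPM per kb.

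Among the ligand genes, the B7 pair was present at modest levels. Cd80 (ENSMUSG00000075122.4, chr16:38455561-38496335, plus strand) was at 23.8 CPM in CD174, 23.6 in CD177, 23.3 in CD176, 17.6 in CD170, 15.8 in CD171 and 12.2 in CD178. CD174, CD176 and CD177 formed an upper trio and CD178 was lowest, and the highest library exceeded it 1.95-fold (95% interval 1.61 to 2.36). Its log2 range was 0.95, and 0.94 without CD171 and CD174. With total-count scaling the highest library was CD177 in place of CD174.

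Cd86 (ENSMUSG00000022901.13, chr16:36603869-36666081, minus strand) was at 19.3 CPM in CD176, 16.3 in CD177, 12.8 in CD178, 7.96 in CD170, 7.87 in CD171 and 2.68 in CD174. CD174 was lowest, on 18 counts, with a 95% interval of 1.59 to 4.24 CPM that reached none of the other libraries. Highest over lowest was 7.21-fold (4.48 to 11.6), a log2 range of 2.80. Without CD171 and CD174 the log2 range was 1.27.

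The order of libraries thus differed within the pair, and the ratio of their counts, which needs no scaling of library size, shows it directly. There were 1.05 Cd86 counts per Cd80 count in CD178, 0.831 in CD176, 0.694 in CD177, 0.498 in CD171, 0.453 in CD170 and 0.113 in CD174. The 95% interval of CD174, 0.065 to 0.184, lay below those of the other libraries, and the ratio differed 9.31-fold between CD174 and CD178. Without CD174, alone or with CD171, it differed 2.31-fold. In CD178 alone, Cd86 counts exceeded Cd80 counts, with an interval of 0.89 to 1.23.

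Dendritic cells also express Cd86 strongly, and their 7 markers were measured beside it. Their summed level was 14.4 CPM in CD174 and lay between 22.2 and 32.6 elsewhere, led by Fscn1, Ccr7 and Clec9a. In CD174, Zbtb46 and Xcr1 were at 0 counts and Clec9a at 1 count, and Ccr7 and Fscn1 had their lowest levels. Flt3 (2.98 CPM) and Cd209a (1.19 CPM) were instead at their second highest there, and in CD171 Xcr1 and Cd209a were at 0. CD174 was lowest in Cd86 and in the sum of this list, though not in each of its members, and the part of dendritic cells in the Cd86 values was not tested.

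Cd40 (ENSMUSG00000017652.16, chr2:165055627-165072948, plus strand) was close to the limit of counting. It had 4 counts in CD171 and 14 to 20 in the others. Its level was 2.98 CPM in CD174, 0.98 in CD176, 0.743 in CD170, 0.739 in CD178, 0.683 in CD177 and 0.309 in CD171, with a 95% interval of 1.82 to 4.6 CPM in CD174 and of 0.0841 to 0.79 in CD171. CD174 was highest, and its interval lay above those of the other libraries. The fold of highest over lowest, 9.65, has a wide interval of 3.3 to 28.2, the lowest value resting on 4 counts. It was set by CD174 and CD171: the log2 range of 2.85 became 1.37 without CD174 and 0.46 without both.

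The PD-1 ligands differed widely in level. Cd274 (ENSMUSG00000016496.7), the gene of PD-L1, was at 266.7 CPM in CD177, 222.4 in CD176, 217.1 in CD170, 207.7 in CD178, 177.8 in CD171 and 163.2 in CD174. CD174 and CD171 were low and CD177 was high, with 1.63-fold (1.53 to 1.74) between the ends. Its log2 range was 0.71, and 0.36 without CD171 and CD174. Its median level lay at percentile 93.6 of the 12627 genes.

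Pdcd1lg2 (ENSMUSG00000016498.9), the gene of PD-L2, was at 9.53 CPM in CD174, 9.08 in CD176, 7.84 in CD178, 7.69 in CD170, 7.52 in CD177 and 1.16 in CD171. CD171, on 15 counts and with an interval of 0.648 to 1.91 CPM, stood below the other 5 libraries, which lay close together. Highest over lowest was 8.23-fold (4.69 to 14.4), a log2 range of 2.92, but the log2 range was 0.34 without CD171 and 0.26 without CD171 and CD174. CD174 was the highest library with TMM or DESeq2 scaling and CD176 with total counts.

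Cd274 counts per Pdcd1lg2 count were 153.6 in CD171, 35.5 in CD177, 28.2 in CD170, 26.5 in CD178, 24.5 in CD176 and 17.1 in CD174. The interval in CD171, 92.9 to 274.9, lay above those of the other libraries. The ratio differed 8.97-fold between libraries, 2.07-fold without CD171 and 1.45-fold without CD171 and CD174. PD-L1 transcripts thus exceeded PD-L2 transcripts in each library, per kilobase by 9.27-fold or more. Each gene overlaps an antisense gene: AC119228.1 shares 511 exon bases with Cd274, and A930007I19Rik shares none with Pdcd1lg2. Since no source used here states whether strand was used in counting, reads of AC119228.1 in the shared bases cannot be told apart from those of Cd274. A930007I19Rik, which shares no annotated exon base with Pdcd1lg2, had 513 to 1186 counts of its own. AC119228.1 was not found among the gene IDs counted. Of the 50-base stretches of Cd274 transcript, 12.4% also occur, on either strand, in another annotated gene, AC119228.1 included. Stretches in the bases shared with AC119228.1 lie at the same place in the genome and not at another one.

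Icosl (ENSMUSG00000000732.8, chr10:78069302-78083913, plus strand) was at 67.8 CPM in CD176, 66.1 in CD170, 62.4 in CD177, 43.8 in CD178, 42.1 in CD174 and 39.2 in CD171. The libraries formed an upper trio (CD170, CD176 and CD177) and a lower trio, with no value between 43.8 and 62.4 CPM. Its log2 range was 0.79, and 0.63 without CD171 and CD174. With total counts CD174 and not CD171 was the lowest.

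Cd83 (ENSMUSG00000015396.3, chr13:43784775-43803132, plus strand) encodes a surface protein of mature dendritic cells that opposes the MARCH1-driven loss of CD86 and MHC class II from the surface. It was at 88.4 CPM in CD177, 67 in CD176, 62.2 in CD178, 60.5 in CD170, 46.2 in CD171 and 45.7 in CD174. CD177 was high and CD171 and CD174 were low. The lowest was CD174 with TMM and total counts and CD171 with DESeq2 size factors. The highest over lowest was 1.93-fold (1.71 to 2.18), and the log2 range of 0.95 became 0.55 without CD171 and CD174. Cd83 counts per Cd86 count, a ratio added after the values were seen, were highest in CD174 at 17.1 and 3.47 to 7.6 in the others. They differed 4.92-fold in all, and 2.19-fold without CD171 and CD174.

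**Figure D2:**
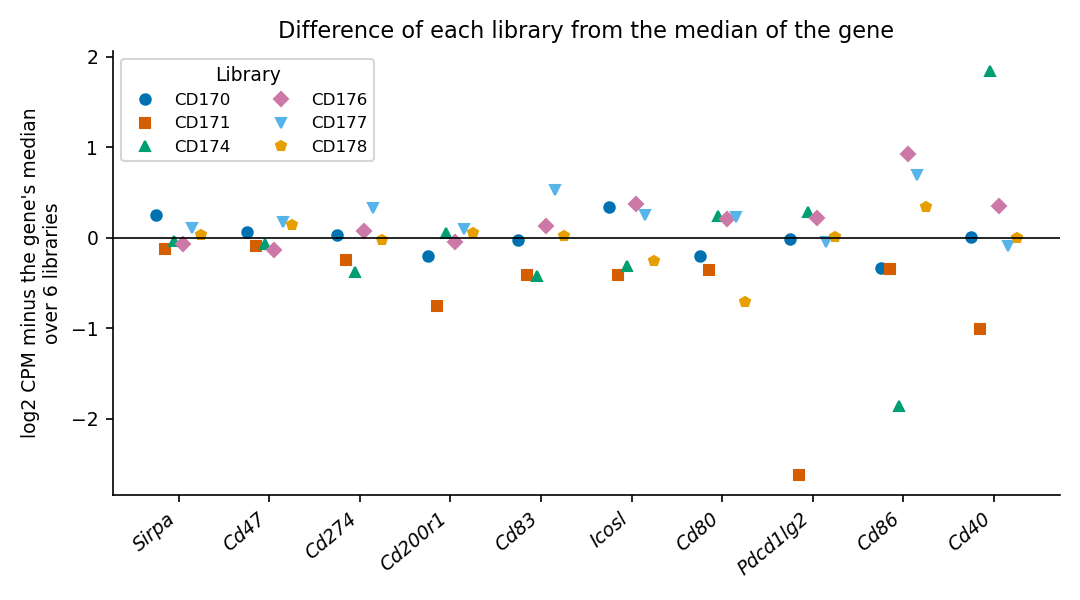
Difference of log2 CPM in each library from the gene's median over the 6 libraries; each symbol is 1 library. Cd86 in CD174 and Pdcd1lg2 in CD171 lie far below 0 and Cd40 in CD174 far above it, while Cd47 and Sirpa stay within a log2 range of 0.32 and 0.38.

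Of the brake genes, Sirpa and Cd47 had smaller log2 ranges over all libraries than any ligand gene. Cd200r1 did not: its log2 range of 0.86 exceeded those of Cd274 (0.71) and Icosl (0.79). Without CD171 and CD174, the ligand gene Pdcd1lg2 had the smallest log2 range, 0.26, against 0.30 for Cd200r1 and 0.32 for Sirpa and Cd47. Sirpa (ENSMUSG00000037902.18, chr2:129592835-129632228, plus strand) was at 2238 CPM in CD170, 2026 in CD177, 1922 in CD178, 1836 in CD174, 1795 in CD176 and 1722 in CD171. Highest over lowest was 1.3-fold (1.28 to 1.32), and its median lay at percentile 99.8 of all genes. Without CD171 and CD174 its log2 range was 0.32. CD170 was the highest under each scaling, and CD171 the lowest except with total counts, where it was CD174. No 50-base stretch of Sirpa transcript occurred in another annotated gene.

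Cd47 (ENSMUSG00000055447.18, chr16:49800533-49915010, plus strand), the ligand that SIRPA binds, was at 919.3 CPM in CD177, 895.6 in CD178, 846.8 in CD170, 775.1 in CD174, 758.9 in CD171 and 738.7 in CD176. Highest over lowest was 1.24-fold (1.22 to 1.27). Its log2 range of 0.32 lay at percentile 4.09 of all genes, and that of Sirpa, 0.38, at percentile 7.46. For Cd47 it was also 0.32 without CD171 and CD174. CD177 was the highest under each scaling; the lowest was CD176, or CD174 with total counts.

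There were 0.466 Cd47 counts per Sirpa count in CD178, 0.454 in CD177, 0.441 in CD171, 0.422 in CD174, 0.412 in CD176 and 0.378 in CD170. The ratio differed 1.23-fold between libraries, also without CD171 and CD174. The interval in CD170 (0.371 to 0.385) lay below those of the others, so the small differences exceeded counting error; how much of them is spread between mice was not tested. By root mean square difference of log2 profiles, Cd47 and Sirpa were the closest pair of the 10 genes, at 0.099, followed by Cd274 and Cd83 at 0.11.

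**Figure D3:**
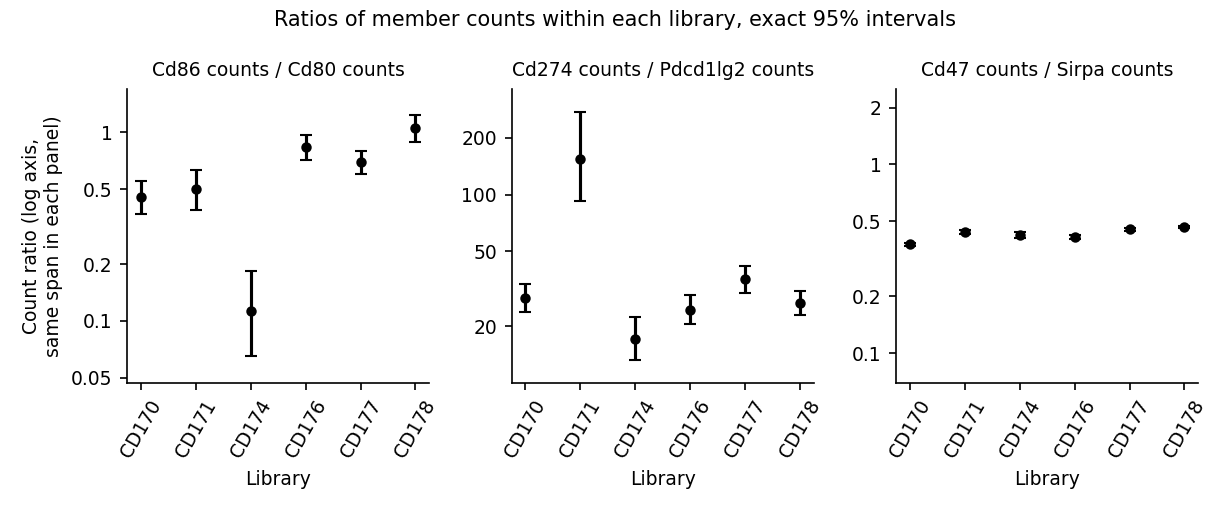
Ratio of counts within each library for the B7 pair, the PD-1 ligands and the CD47-SIRPA pair, on log axes of equal span; bars are exact 95% intervals of counting error. CD174 is low for Cd86 to Cd80 (0.113) and CD171 high for Cd274 to Pdcd1lg2 (153.6), while Cd47 to Sirpa stays between 0.378 and 0.466.

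Cd200r1 (ENSMUSG00000022667.17, chr16:44765736-44794978, plus strand) was at 133.3 CPM in CD177, 128.9 in CD178, 128.8 in CD174, 119.8 in CD176, 108.2 in CD170 and 73.2 in CD171. CD171 was low under each scaling and the other 5 libraries lay close together, with 1.82-fold (1.69 to 1.96) between the ends; the log2 range was 0.86, and 0.30 without CD171, alone or with CD174. Of its 50-base stretches, 1.16% occur in another gene, Cd200r4 included.

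Added together, the 7 ligand genes summed to 465.6 CPM in CD177, 409.8 in CD176, 377.6 in CD170, 347.3 in CD178, 290.1 in CD174 and 288.4 in CD171, a 1.61-fold difference. The 3 brake genes summed to 3193 CPM in CD170, 3079 in CD177, 2947 in CD178, 2740 in CD174, 2653 in CD176 and 2554 in CD171, a 1.25-fold difference. Without CD171 and CD174 the folds were 1.34 for the ligand genes and 1.21 for the brake genes. There were 9.45 brake counts per ligand count in CD174, 8.86 in CD171, 8.48 in CD178, 8.46 in CD170, 6.61 in CD177 and 6.47 in CD176. CD176 and CD177 were thus the libraries with relatively most ligand counts. Per kilobase, Cd274 made up 51.8 to 59.4% of the ligand genes, Cd83 20.9 to 25.2% and Icosl 9.29 to 13.1%. Sirpa made up 68.4 to 73.2% of the brake genes.

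Of all 12627 genes, 50.5% spanned a log2 range of 1 or more over the libraries, and 3 of the 10 genes did: Cd86, Cd40 and Pdcd1lg2. The median log2 range was 0.91 for the 10 genes and 1.01 for all genes. With total counts 4 of the 10 genes passed, the fourth being Cd83. Without CD171 and CD174 it was 1 of 10, Cd86, against 16.9% of all genes, with medians of 0.41 and 0.45. Range depended on level: it reached 1 for 99.3% of genes under 1 CPM, where Cd40 lies, for 88.9% of those from 1 to 10 CPM, where Pdcd1lg2 lies, and for 33.9% of those from 10 to 100 CPM. This last class holds Cd86, which passed, and Cd80, Icosl and Cd83, which did not. From 100 to 1000 CPM the share was 11.9%, and Cd274, Cd200r1 and Cd47 did not pass.

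**Figure D4:**
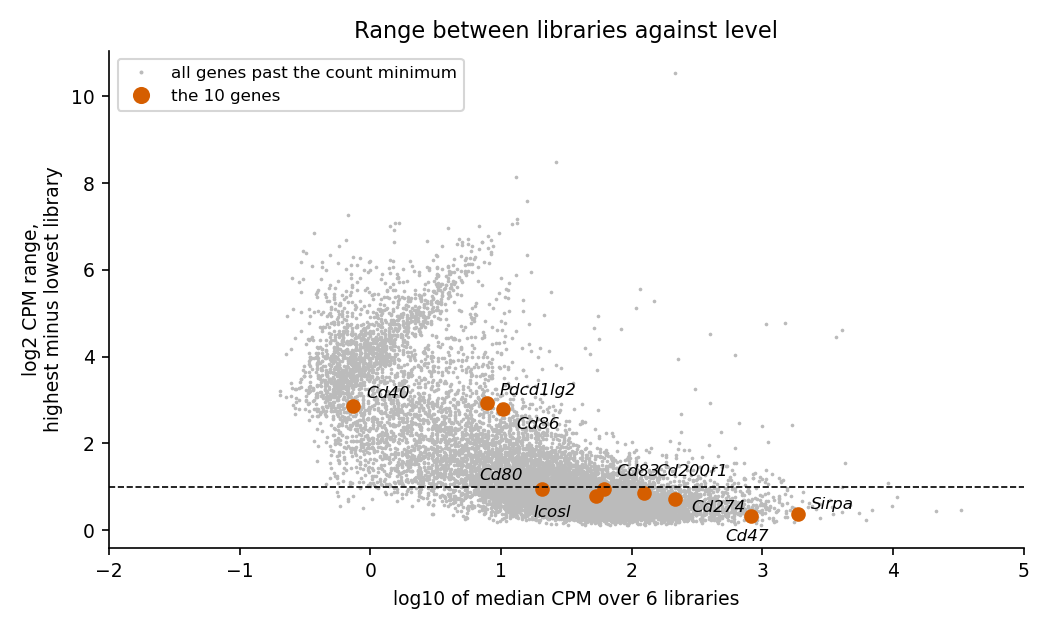
Range of log2 CPM between the highest and lowest library against the log10 of the median CPM, for 12627 genes (grey) and the 10 genes (orange); the dashed line marks a range of 1. Cd40, Pdcd1lg2 and Cd86 lie above the line and the other 7 genes below it.

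CD171 was the lowest library for 5 of the 10 genes (Cd40, Pdcd1lg2, Icosl, Cd200r1 and Sirpa) and CD174 for 3 (Cd86, Cd274 and Cd83). Of all 12627 genes, 22% were lowest in CD171 and 38.9% in CD174. These counts use TMM scaling. Total counts lowered the median gene of CD174 by 0.20 on the log2 scale relative to TMM and moved that of any other library by at most 0.08. CD174 was then also the lowest for Icosl, Cd47 and Sirpa. CD177 was the highest for Cd274, Cd83, Cd200r1 and Cd47 under each of the 3 scalings. With TMM, 12.5% of all genes were highest in CD177.

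The counter-receptors that these ligands engage on lymphocytes were almost without counts. Cd40lg, the ligand of CD40, had 0 counts in each library, which allows up to 0.447 CPM in the shallowest, CD174, and 0.123 in the deepest. Pdcd1, the gene of PD-1, had 11 counts in CD177 and 0 elsewhere. Ctla4 had 4 counts in CD177, 8 in CD178 and 0 in the others. Icos had 9 in CD170, 2 in CD177, 18 in CD178 and 0 in the others, and Cd28 had 8 to 13 counts in CD170, CD176, CD177 and CD178 and 0 in CD171 and CD174. Btla, an inhibitory receptor of lymphocytes, had 31 counts in CD176 and 0 to 13 elsewhere.

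T cell markers were also scarce: the summed level of the 8 genes was 13.6 CPM in CD174 and between 2.23 and 4.4 elsewhere. Trbc2 (4.77 CPM), Trac (4.32 CPM) and Cd3g (2.68 CPM) had their highest levels in CD174. Cd4, Cd8a and Cd5 were at 0 counts there, and Cd3d and Cd3e were highest in other libraries. Over all libraries the most counted were Cd3d, Cd3g and Trac. B cell markers, among them Ms4a1, Cd79a and Pax5, summed to at most 1.04 CPM. At this depth the T cell partners of the ligand genes were at or near the limit of counting.

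The partners of the brake genes were measured well. Cd200, the ligand of CD200R1, was at 32.6 CPM in CD176, 32.2 in CD178, 31.8 in CD170, 31.6 in CD174, 25.5 in CD177 and 17.1 in CD171. CD171 was lowest for the ligand and its receptor alike, as it was for 22% of all genes. There were 3.4 to 5.22 Cd200r1 counts per Cd200 count, a ratio added after the values were seen, and CD171 and CD174 held neither end of it.

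**Figure D5:**
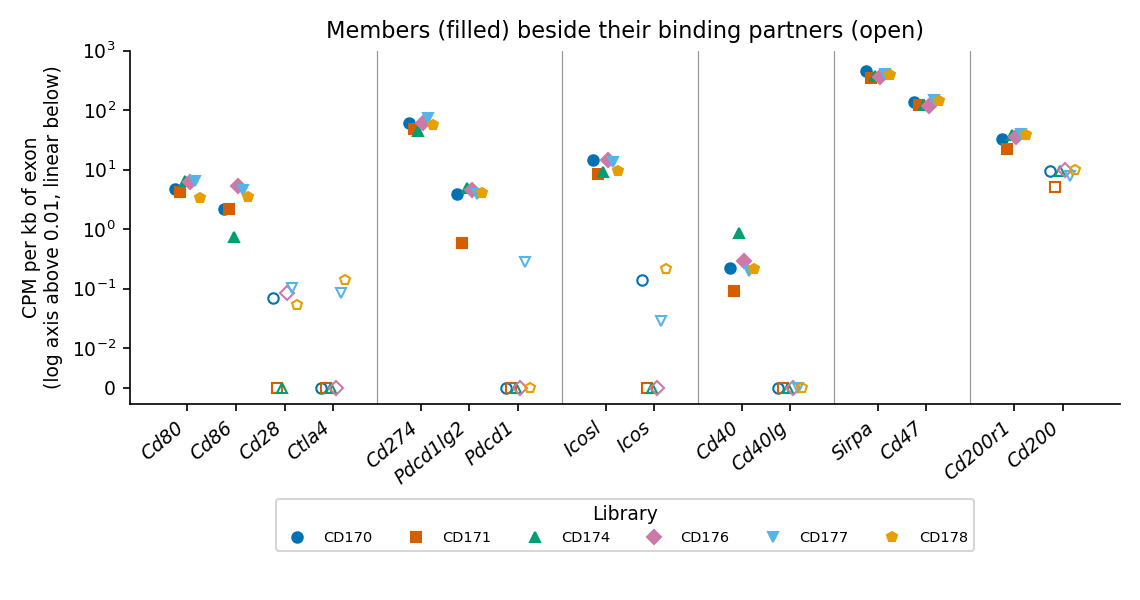
Level of the members (filled) and of their binding partners (open) in each library, in CPM per kilobase of exon, on an axis that is linear below 0.01 and logarithmic above. Cd40lg lies at 0 in each of the 6 libraries and Pdcd1 in 5 of them, while Cd47 and Cd200 are present in all 6.

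Of 64 other genes of these pathways, in 6 lists, 51 passed the count minimum and 16 of those spanned a log2 range of 1 or more (median of the 51, 0.77), where 50.5% of all genes did. Without CD171 and CD174, 6 did, against 16.9% of all genes. Among brake partners and effectors, 14 of 15 were measured and 6 passed. Calr, calreticulin, an eat-me signal read by LRP1, was at 1305 to 1720 CPM. Ptpn6, the phosphatase SHP-1 that SIRPA recruits, was at 253 to 368.4 CPM. Lrp1 was at 2010 CPM in CD170 against 956.9 to 1302 elsewhere, a log2 range of 1.07.

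Surfactant proteins A and D can bind SIRPA, and Sftpa1 and Sftpd had the largest ranges of that list, 5.48 and 3.72. They were at 216.1 and 34.4 CPM in CD174 and at 4.71 to 48.3 and 2.49 to 14.4 CPM in the others. Epithelial cells make them, and epithelial markers, led by Krt19, Epcam and Sftpc, reached a summed level of 5120 CPM in CD174 against 1351 to 2177 elsewhere. Without Krt19, Epcam and Cdh1, a trim made after seeing values, the sums were 2739 CPM in CD174 and 103.3 to 427.2 CPM elsewhere. Krt19, Epcam and Cdh1 thus made up most of the sum outside CD174. Their log2 ranges were 1.17, 0.45 and 0.27, against 1.59 (Krt8) to 5.27 (Sftpc) for the other markers. Which cells carried them was not tested, so the full sum is not a measure of epithelial cells. Dok2, an adaptor of CD200R1 signalling (1.03), Thbs1, a ligand of CD47 (1.02), and Sirpb1b (1.17) also passed. Sirpb1b belongs to a family of near copies and is uncertain individually.

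Among other co-signalling genes, 11 of 17 were measured and 4 passed, where 50.5% of all genes did. The 4 were Cd276 (1.58), Nectin2 (1.66), Lgals9 (1.11) and Tnfsf14 (4.60, with 0 counts in CD174). By median CPM the most abundant of the list were Cd2 at 320.5 to 389.7 CPM, Vsir, the gene of the inhibitory ligand VISTA, at 159.3 to 290 CPM, and Cd24a at 129.2 to 232.1 CPM. The highest medians per kilobase were 197.2 for Cd2 and 134.1 for Cd48. Per kilobase, Vsir (median 42.6) lay between Cd274 (58.7) and Cd200r1 (37.1), so an inhibitory ligand outside the 10 genes was about as abundant as these.

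All 12 genes of the CD40 to NF-kB route were measured and 5 passed, where 50.5% of all genes did. The 5 were Traf1 (1.54), Traf5 (1.38), Traf6 (1.32), Map3k14 (1.63), the kinase NIK, and Birc3 (1.42). Traf1, Traf5 and Birc3 were highest in CD174, the library with the most Cd40, and Traf6 and Map3k14 were lowest there. Of all genes, 29.9% were highest in CD174 and 38.9% lowest there, so these places are common ones. A link to Cd40 was not tested. The transcription factors Nfkb1 (140.3 to 187 CPM), Rela (64.9 to 102.4 CPM) and Nfkb2 (48.1 to 92.3 CPM) were the most abundant of the list.

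None of the 9 regulators of the interferon response and of PD-L1 spanned a log2 range of 1 or more, where 50.5% of all genes did. Their median range was 0.52, against 1.01 for all genes. All but Cmtm4 had a median above 10 CPM, where fewer genes passed. The share was 33.9% from 10 to 100 CPM and 11.9% from 100 to 1000 CPM. Ifngr1, a chain of the interferon-gamma receptor, was at 158.1 to 244.8 CPM, Stat3 at 195.5 to 264.6 CPM and Jak1 at 166.9 to 240.2 CPM. Among 4 genes of B7 protein turnover, March1, the ubiquitin ligase that removes CD86 from the surface, was at 81.5 to 126.1 CPM, Rab11a at 67.4 to 97.8 CPM and March8 at 72.2 to 82.3 CPM. Only Lrba of these 4, which protects CTLA4 from degradation, passed, at 1.47, where 50.5% of all genes did. March1 was lowest in CD174, the library lowest in Cd86, as were 38.9% of all genes.

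The genes whose profiles over the 6 libraries lay closest to each of the 10, among 8297 with a median of at least 10 CPM, were named by root mean square difference on the log2 scale. Among the closest to Cd274 were Flvcr2 (0.049) and Nr1h3 (0.052), and closest to Cd83 were Kctd12b (0.071), Trim30d (0.092) and Mdm2 (0.094). Cd47 had Rabl6 (0.029), Mcm4 (0.037) and Sephs1 (0.043), and Sirpa had Nr1h2 (0.029), Fzd4 (0.030) and Nf2 (0.037). Among those of Icosl were Gnpda1 (0.117) and Ppp2r5a (0.122). Gnpda1, picked for its likeness to Icosl, had the same trios, at 79 to 84.3 CPM in the upper and 48.2 to 58.9 CPM in the lower.

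Cd200r1 had an ID with no symbol here, then Gbp7 (0.076) and Mgst1 (0.076). Cd80 had Hmgcs1 (0.144), Mgme1 (0.151) and Klhl42 (0.155). The genes with large ranges had larger differences from their neighbours, but this measure grows with a gene's own spread. Cd86 had Aasdhppt (0.258), Mndal (0.293) and Ptbp2 (0.300), each also lowest in CD174. Pdcd1lg2 had Erc2 (0.268), Anapc10 (0.379) and Gnpnat1 (0.390), each also lowest in CD171. Cd40 had Rpl10a-ps1 (0.167), Nat9 (0.188) and Fads1 (0.239), each highest in CD174. These genes were picked for their likeness, so a shared highest or lowest library follows from the choice and is no separate result. With 6 points and 8297 candidates, close profiles are a description of these libraries.

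Markers of the remaining cell types were measured as well. Neutrophil markers, led by S100a8 and Cxcr2, summed to 9.73 to 20.3 CPM. Ly6g was at 0 counts in each library, and S100a9 had 0 to 11 counts against 77 to 172 for S100a8. Retnlg reached 76 counts, in CD178. Eosinophil markers (Ccr3, Prg2, Il5ra and Epx) summed to at most 2.79 CPM. Red cell and platelet markers, led by Hbb-bs, Hba-a1 and Hba-a2, spanned 112.3 (CD177) to 2883 CPM (CD170), with Ppbp at 0 counts in each library. Their part in the values of the 10 genes was not tested.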

How the data were processed

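The authors deposited raw counts of reads per Ensembl gene for 6 libraries, not normalized. Per the submitters' processing notes, HTSeq 0.11.2, STAR 2.7.1a, Trim Galore 0.6.2 and bcl2fastq 2.18.0.12 were used, on GRCm38. The sources used here do not state the annotation release or the strand setting. Per the labels' protocols, lavage cells were frozen before RNA extraction.

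IDs were matched to GENCODE M21 with versions ignored (48435 of 48795 matched). The 5 summary rows that name no gene, 18.8% (CD177) to 46% (CD174) of all counts, stayed out of library sizes. Counts were scaled by TMM in edgeR 4.0.16 (R 4.3.3) to CPM, and to log2 CPM with a prior count of 2. The remaining work used scipy 1.17.1, pandas 2.3.3, numpy 2.4.6 and matplotlib 3.10.9 under Python 3.11.15. Intervals are exact 95% Poisson intervals for levels, exact (Clopper-Pearson) for ratios of counts and approximate for folds; they and the floor of 3 counts cover counting error only, as reads are not independent molecules. The range measure was tested on simulated data. With no group for any library, no differential test was run. Ranges between libraries may hold effects of exposure and sex, spread between animals and technical spread, which cannot be told apart here.

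The members and lists were chosen with earlier results of these data known. The text names the 10 genes; pathway genes with a log2 range of at least 1 and the 3 most abundant of each list; markers at 0 throughout and the 3 most counted of each list; and the 3 closest profiles of each gene, some of which are not reported here. Other genes and ratios were added after their values were seen. As alternatives, total counts, size factors of DESeq2 1.42.0, no count minimum, a prior of 0.5 and fewer libraries were used.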

Additional observations from a re-analysis of the deposited data

Results flagged for a closer look

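A total of 51 genes and ratios were examined for a library far from the other 5, meaning a gap to its nearest neighbour, as a share of the whole range, above Dixon's critical value of 0.625; 11 met it. By the same rule 15.5% of all 12627 genes were marked, 12% in CD174 and 2.38% in CD171, so the 1 in 20 groups that chance marks is not the background here. The pathway genes examined were named for their range or level, some ratios were added after their values were seen, and ratios are not independent of their members. Among the 10 genes 2 were marked: Cd40, highest in CD174 at 2.98 CPM (next 0.98), and Pdcd1lg2, lowest in CD171 at 1.16 CPM (next 7.52). The ratio of Cd274 to Pdcd1lg2 counts was highest in CD171 at 153.6 (next 35.5), and that of Cd83 to Cd86 counts in CD174 at 17.1 (next 7.6).

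Among the other pathway genes, 4 were highest in CD174: Sftpa1 at 216.1 CPM (next 48.3), Sftpd at 34.4 CPM (next 14.4), Nfkb2 at 92.3 CPM (next 63) and Lrba at 10.6 CPM (next 5.49). Btla was highest in CD176 at 2.03 CPM (next 0.634), Cd2 in CD178 at 389.7 CPM (next 345.8) and Lrp1 in CD170 at 2010 CPM (next 1302).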

How the results depend on the processing

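No paired analysis was possible because the labels used here name no groups. Of 191 alternative values, 46 moved beyond the tolerance set for them; ranges and folds have no sign, so none could reverse. With DESeq2 size factors the brake genes' sum differed 1.23-fold between libraries; with total counts it differed 1.36-fold and the ligand genes' sum 1.95-fold. Without the count minimum, 26 of the other pathway genes spanned a log2 range of 1 or more, as more genes were examined. Without CD171 and CD174 together, 1 of the 10 genes and 6 other pathway genes did, the median range was 0.41, and the folds were 2.31 (Cd86 to Cd80), 1.45 (Cd274 to Pdcd1lg2), 1.34 (ligand sum) and 1.21 (brake sum). Leaving out each library in turn left 2 to 3 genes of the 10, a median range of 0.69 (without CD171) to 0.90, 10 (without CD174) to 16 other pathway genes, 2.31 (without CD174) to 9.31 for Cd86 to Cd80, 2.07 (without CD171) to 8.97 for Cd274 to Pdcd1lg2, 1.13 to 1.23 for Cd47 to Sirpa, 1.42 (without CD177) to 1.61 for the ligand sum and 1.2 to 1.25 for the brake sum. With another transcript length, a check added after seeing the data, the Cd86 to Cd80 ratio of median levels per kilobase was 0.636 in place of 0.515. Apart from the count minimum and the libraries left out, the cause was not tested. Depth limits Cd40 (4 to 20 counts) and the lymphocyte receptors most.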
